A study of Mus musculus with 5 samples.

Results

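Matrix metalloproteinases (Mmp) are zinc enzymes that cut the proteins of the extracellular matrix, and the tissue inhibitors of metalloproteinases (Timp) bind them and block their active site. The 9 genes followed here, 6 metalloproteinases (Mmp2, Mmp3, Mmp9, Mmp10, Mmp13 and Mmp14) and 3 inhibitors (Timp1, Timp2 and Timp3), were chosen by name. All 9 had counts in each library, among 23173 genes found over the 5 libraries. Mmp13 is a collagenase that opens fibrillar collagen, Mmp3 (stromelysin-1) and Mmp10 (stromelysin-2) cut a wide range of matrix proteins and activate other proenzymes, and Mmp2 and Mmp9 are the gelatinases, which digest denatured collagen and basement membrane collagen. Mmp14 is anchored in the cell membrane and activates pro-Mmp2 with the help of Timp2. In colon, mesenchymal cells and leukocytes are the known sources of most of these enzymes, while the inhibitors are made by many cell types.

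The libraries were inDrop single-cell RNA-seq of colon from wild type (WT) mice. Tumors were induced by azoxymethane (AOM), a carcinogen, with dextran sodium sulfate (DSS), which inflames the colon. All 4 tumor libraries carry the treatment label 5FU+Irinotecan, a pair of cytotoxic drugs, and were dissociated by the same procedure, labelled normal dissociation. They are labelled day 1 (replicates 1 and 2, the early group), day 3 and day 6 (together the late group), and the sources used here differ on whether these days count from the start or after the end of treatment. The comparator was 1 library of untreated WT colon, labelled WT fibroblast, from which the crypts were stripped so that stroma was enriched, while the tumor procedure kept the epithelium. Untreated AOM/DSS tumors were not analysed here. Tumor state, drug treatment and dissociation therefore cannot be told apart in any comparison with the normal library. Whether a library held 1 animal or several is not given in the sources used here, so p-values measure the spread between libraries.

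After removal of barcodes with fewer than 500 genes or more than 15% mitochondrial counts, 748, 2403, 1419 and 2826 cells remained in the tumor libraries, in the order day 1 replicate 1, day 1 replicate 2, day 3, day 6 that is called library order from here on, and 1095 in the normal library. The libraries held 5132360 to 16904947 transcript counts (unique molecular identifiers, UMIs), with medians of 2903 to 3601 UMIs per cell. Between 4 and 41 cell barcodes were shared by any pair of libraries. Cells were clustered with the 9 genes and their pathway list left out, and clusters were named from marker lists. The cancer-associated fibroblast (CAF)-like cluster of the tumors held 13, 39, 30 and 56 cells in library order, 138 in all. At least 10 of its 11 mesenchymal markers were above the level of all other cells in each tumor library. Markers of other cells were found in its sums too, with all 11 columnar markers at a summed 2626 to 7563 CPM and 6 to 10 of 10 squamous markers at 816 to 6378 CPM, highest in day 3, beside mesenchymal sums of 10523 (day 3) to 40702 CPM. Their part in the levels below was not tested. Although they were left out of the clustering, Mmp10, Mmp13 and Mmp3 were among the 10 leading genes of the CAF-like cluster and Mmp9 among those of the neutrophil-like cluster. Its normal counterpart was 464 mesenchymal cells, made of 102 telocyte-like, 263 fibroblast-like, 26 pericyte-like and 73 myofibroblast-like cells. Levels below are counts per 1000000 UMIs (CPM) of a cell class summed within a library, and intervals are exact 95% Poisson intervals that cover counting error only.

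Mmp13, Mmp3 and Mmp10 lie in the same stretch of chromosome 9 (GRCm38.p6), with other Mmp genes between them, at chr9:7272514-7283333, chr9:7445822-7455975 and chr9:7502342-7510242, a span of 237729 bases. The other members are scattered, with Mmp2 at chr8:92827290-92853421, Mmp9 at chr2:164940326-164955850, Mmp14 at chr14:54431598-54442456, Timp1 at chrX:20870166-20874737, Timp2 at chr11:118301061-118355411 and Timp3 at chr10:86300412-86349505. These 3 genes had their highest levels in CAF-like cells in most tumor libraries, as described below, so the 120 bases upstream of each start are shown here from RefSeq (GRCm38.p6, plus strand, chr9:7272394-7272513 for Mmp13, chr9:7445702-7445821 for Mmp3 and chr9:7502222-7502341 for Mmp10). Capitals mark a match to TGANTCA, the letters that AP-1 (Fos and Jun) factors are known to bind, searched on both strands.

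Mmp13: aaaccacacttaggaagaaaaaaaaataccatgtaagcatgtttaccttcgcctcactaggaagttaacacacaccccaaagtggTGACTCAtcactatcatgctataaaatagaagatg
Mmp3: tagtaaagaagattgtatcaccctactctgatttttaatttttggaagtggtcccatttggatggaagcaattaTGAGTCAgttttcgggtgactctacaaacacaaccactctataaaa
Mmp10: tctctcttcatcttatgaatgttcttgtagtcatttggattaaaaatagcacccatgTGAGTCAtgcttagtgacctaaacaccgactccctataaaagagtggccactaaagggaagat

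The match lay 35, 46 and 63 bases upstream of the start in Mmp13, Mmp3 and Mmp10. No match was found in the 250 upstream bases of Mmp14, Timp1, Timp2 or Timp3, while Mmp2 and Mmp9 were not analysed in this respect. Of 32851 promoters of the same length, 2217 (6.75%) held the motif. A match of letters is a description and was not tested for binding.

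The collagenase and both stromelysins had their highest tumor levels in the CAF-like cells, with an exception for Mmp3 in day 6. Mmp13 stood at 5109, 3820.5, 358 and 2588 CPM in CAF-like cells in library order (245, 908, 39 and 419 UMIs), a mean of 2969 ± 2022 (SD, n = 4 libraries). In the normal mesenchymal cells it had 1 UMI in 464 cells, or 0.774 CPM (0.0196 to 4.31). All 4 tumor libraries were above the normal library, but the day 6 level came from 1 cell, as described below, and was 0 without it. Mmp10 stood at 2335, 4039, 404 and 1464 CPM (112, 960, 44 and 237 UMIs), a mean of 2061 ± 1537 (SD, n = 4), against 4.64 CPM (1.7 to 10.1) from 6 UMIs in normal mesenchymal cells. Mmp3 stood at 209, 3408, 909.8 and 161 CPM (10, 810, 99 and 26 UMIs), a mean of 1172 ± 1530 (SD, n = 4), against 12.4 CPM (7.08 to 20.1) from 16 UMIs. Mmp3 did not follow the other pair of genes across libraries, since day 1 replicate 1 was high in Mmp13 and Mmp10 and low in Mmp3, and day 3 was low in Mmp13 and Mmp10 and second in Mmp3. In the normal colon, 5 of the 6 Mmp10 UMIs and the only Mmp13 UMI lay in telocyte-like cells, a subepithelial mesenchymal type, at 19.0 and 3.80 CPM, and Mmp3 was found in fibroblast-like cells (11 UMIs) and telocyte-like cells (5 UMIs).

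**Figure D1:**
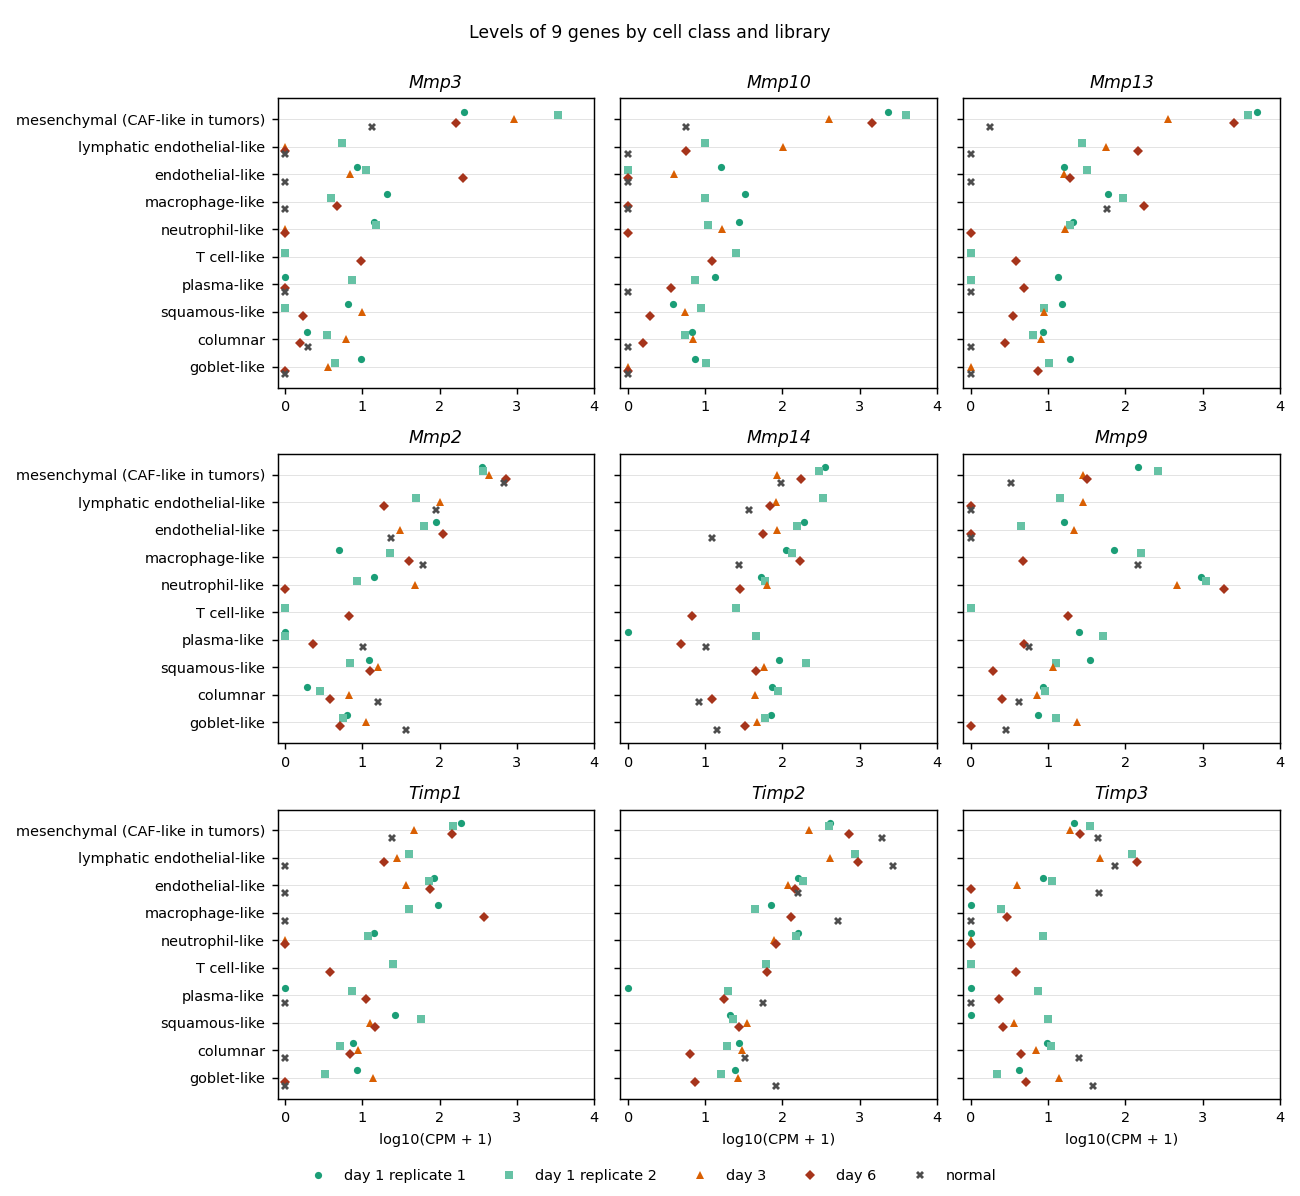
Level of each of the 9 genes, as log10 of CPM plus 1, in each cell class (rows) and library (symbols), for classes with at least 10 cells in a library. Mmp13 and Mmp10 reach 358 to 5109 CPM in CAF-like cells of the tumors and stand at 0.774 and 4.64 CPM in normal mesenchymal cells, while Timp2 is highest in the normal library (1962 CPM in mesenchymal cells).

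CAF-like cells made up 1.62% to 2.11% of the tumor cells and 0.936% to 1.63% of the UMIs. They held more than their share of the transcripts of these 3 genes in each tumor library, for Mmp13 in day 6 through 1 cell. Their share of the Mmp13 UMIs was 81.4% (exact 95% binomial interval 76.5 to 85.6) in day 1 replicate 1, 83.5% (81.2 to 85.7) in day 1 replicate 2, 42.9% (32.5 to 53.7) in day 3 and 70.7% (66.8 to 74.3) in day 6. For Mmp10 the shares were 77.8%, 90.9%, 50.0% and 93.3% in the same order. For Mmp3 they were 31.2%, 93.6%, 73.9% and 48.1%, with only 32 and 54 Mmp3 UMIs in all in the first and the last library. In day 6, without the 1 cell, CAF-like cells had no Mmp13 UMI, while macrophage-like cells had 93 in 19 of 111 cells. The binomial intervals here and below take UMIs as independent draws, which UMIs of the same cell are not. In day 6, endothelial-like cells had Mmp3 at 201 CPM (100.4 to 360), from 11 UMIs that all lay in 1 of 14 cells, beside 161 CPM (105 to 235) in CAF-like cells. As a gauge of low counts outside the source class, columnar epithelial cells had Mmp13 at 0.0678% to 1.98% of the CAF-like level and Mmp10 at 0.0369% to 1.47%. The mesenchymal marker Dcn stood at 0.224% to 1.65% in the same cells. The lower ends for Mmp13 and Mmp10 are from day 6, where 1 cell held most of the CAF-like counts of both genes. Whether these low levels outside the source class are free RNA was not tested.

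A second, smaller source of Mmp13 was the macrophage-like cells. They had 59.1, 92.4 and 175 CPM (15, 63 and 93 UMIs) in both day 1 replicates and day 6, and 56.7 CPM (31.7 to 93.4) from 15 UMIs in the normal library. In the normal colon these cells held 15 of the 16 Mmp13 UMIs, or 93.8% (69.8 to 99.8), spread over 6 of 70 cells. Day 3 had only 4 macrophage-like cells and gives no level. Set against the CAF-like level of the same library, macrophage-like Mmp13 was 1.16%, 2.42% and 6.75%, where Col1a1 was 0.146%, 0.361% and 0.267% and Dcn 1.34%, 0.443% and 0.292%. Mmp13 thus exceeded both collagen and Dcn in day 1 replicate 2 and day 6, and lay below Dcn in day 1 replicate 1. The day 6 percent of Mmp13 was set against a CAF-like level that came from 1 cell, as described below. In day 1 replicate 2, 1 of the 18 cells with Mmp13 held 28 of the 63 UMIs, and without it the level was 51.7 CPM. Lymphatic endothelial-like cells of day 6 had 146 CPM of Mmp13 (99.7 to 206) from 32 UMIs in 6 of 82 cells.

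**Figure D2:**
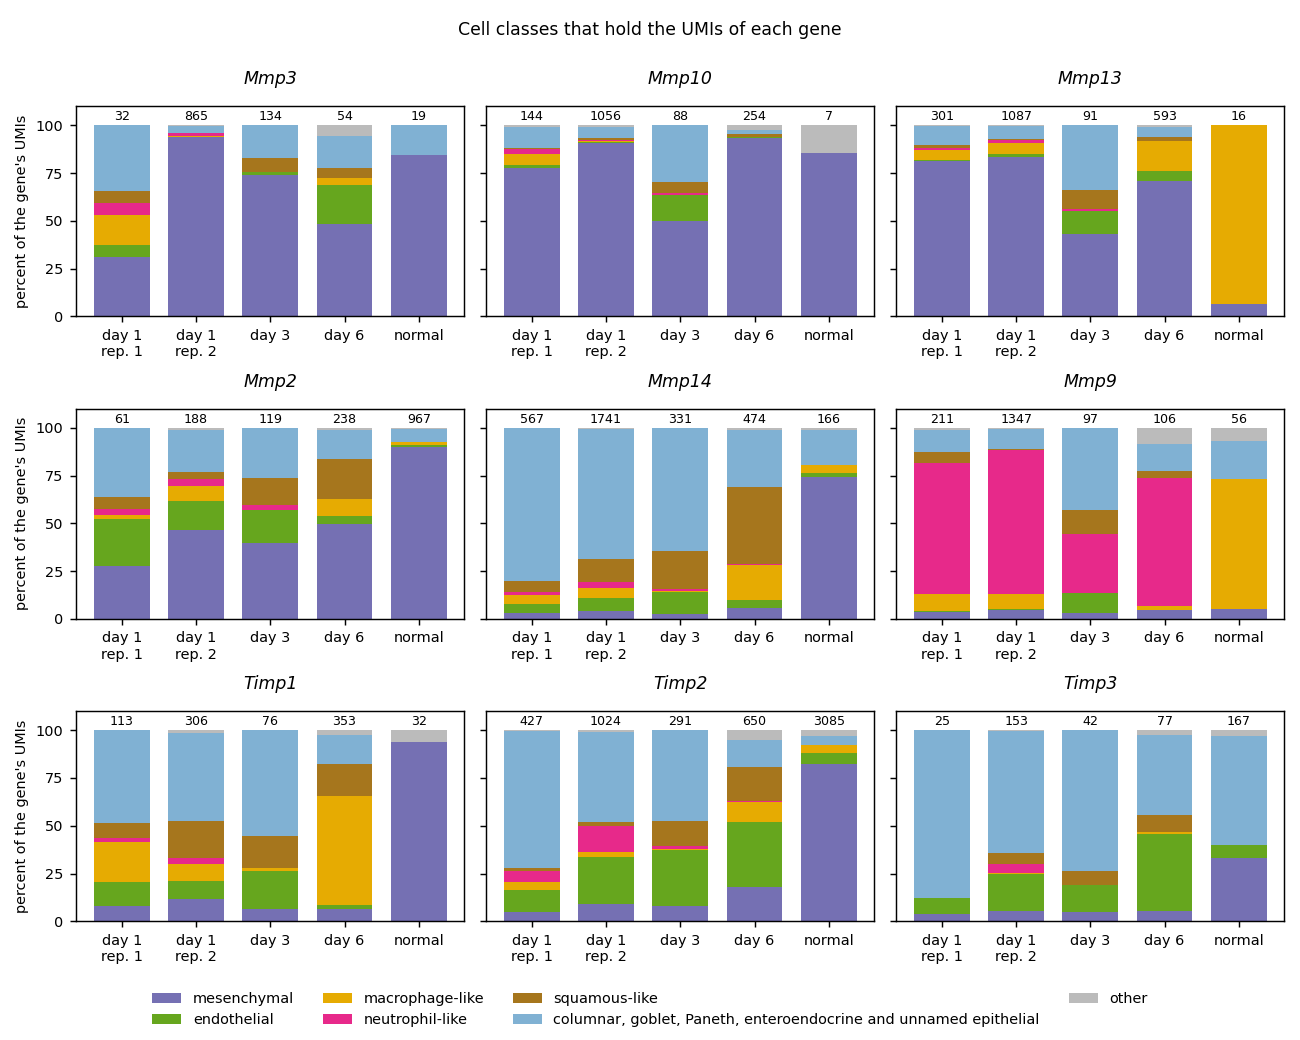
Share of each gene's UMIs (percent, vertical axis) held by each group of cell classes (colors) in each library, with the gene's total UMIs above each bar. Mesenchymal cells hold 42.9% to 83.5% of the Mmp13 UMIs in tumors, in day 6 through 1 cell. Neutrophil-like cells hold 30.9% to 75.1% of the Mmp9 UMIs. Glandular epithelial cells, which hold most of all UMIs in each tumor library, hold 64.7% to 80.2% of the Mmp14 UMIs in all tumor libraries but day 6 (30.2%).

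Within the CAF-like cells the 3 genes were unevenly spread, and in day 6 a lone cell decided the level. At least 1 UMI of Mmp3, Mmp10 or Mmp13 was found in 8 of 13, 29 of 39, 19 of 30 and 8 of 56 CAF-like cells in library order, against 11 of 464 normal mesenchymal cells. UMIs of all 3 genes were found together in 1, 14, 5 and 1 CAF-like cells and in 0 normal mesenchymal cells, which allows a share of up to 0.647% of cells with such UMIs at this depth and sets no limit on cells that express the genes. In day 1 replicate 2, 14 of 14 cells with Mmp3 also had Mmp10 and Mmp13. The 5 cells with the most counts there held 84.8% of the Mmp3, 74.1% of the Mmp10 and 64.5% of the Mmp13 UMIs.

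In day 6 all 419 Mmp13 UMIs of the CAF-like cells came from 1 of 56 cells, which also held 205 of 237 Mmp10 and 19 of 26 Mmp3 UMIs. That cell had 13731 UMIs, against a class median of 2019.5, showed 10 of the 11 mesenchymal markers, and was not among the 6% of cells with the highest doublet scores. Without it the day 6 CAF-like level was 0 for Mmp13, 216 CPM for Mmp10 and 47.2 CPM for Mmp3. In day 1 replicate 1, where 6 of 13 cells had Mmp13, 1 cell held 127 of 245 Mmp13 and 52 of 112 Mmp10 UMIs, and without it Mmp13 was 2936 CPM. In day 1 replicate 2 the highest cell held 153 of 908 Mmp13 UMIs, and without it Mmp13 was 3329 CPM. Thinned to 1000 UMIs per cell, 38.5%, 48.7%, 36.7% and 1.96% of the CAF-like cells in library order had an Mmp13 UMI. Before thinning the shares were 46.2%, 66.7%, 40.0% and 1.79%. In day 6 these are 1 of 51 and 1 of 56 cells, since 5 cells under 1000 UMIs were left out of the thinning. The shares and the CPM placed day 3 and day 6 in opposite order, so no order of these libraries is read from either.

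**Figure D3:**
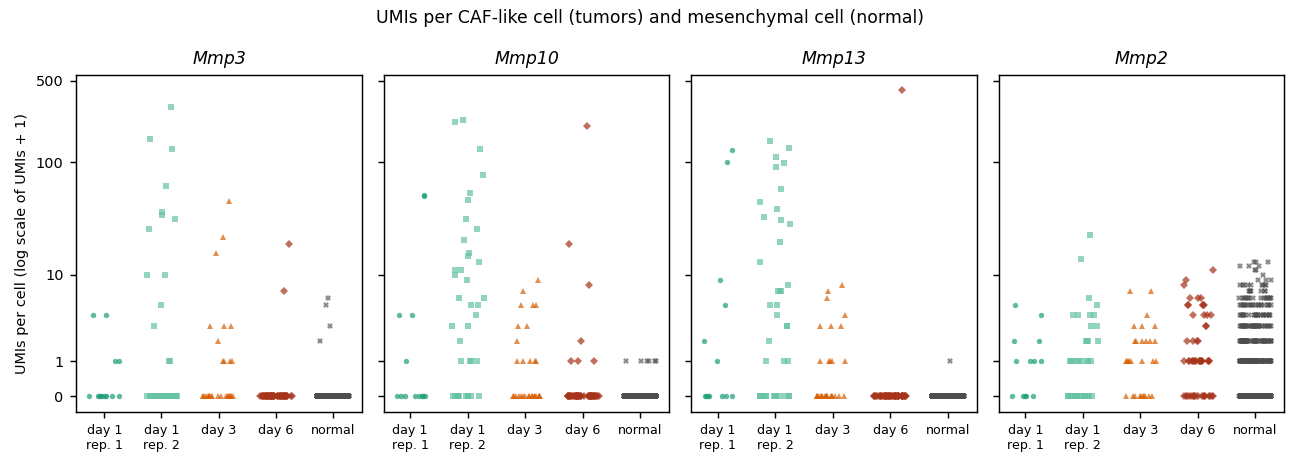
UMIs of Mmp3, Mmp10, Mmp13 and Mmp2 in each CAF-like cell of the tumors and each mesenchymal cell of the normal library (vertical axis, log scale of UMIs plus 1, with 1 point per cell). In day 6 a lone cell with 419 UMIs carries all Mmp13 of the class, whereas Mmp2 is spread over 38 of 56 cells and, in the normal library, over 276 of 464.

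CAF-like cells with a UMI of Pdgfra, a receptor that marks a CAF type the study describes, held most of the collagenase and stromelysin counts in day 1 replicate 2, as did those with a UMI of Pdgfrb, the related receptor. There, 21 of 39 cells had Pdgfra and held 855 of 908 Mmp13, 869 of 960 Mmp10 and 747 of 810 Mmp3 UMIs. Pdgfrb was found in 27 of 39 cells, which held 752 of 908 Mmp13, 847 of 960 Mmp10 and 769 of 810 Mmp3 UMIs. The 17 cells with a UMI of Acta2, a contractile gene, held 160 of 908 Mmp13, 306 of 960 Mmp10 and 231 of 810 Mmp3 UMIs. In day 1 replicate 1, 7 of 13 cells had Pdgfra and held 233 of 245 Mmp13 and 108 of 112 Mmp10 UMIs. They held 1 of 10 Mmp3 UMIs. The 6 cells with Pdgfrb there held 237 Mmp13, 108 Mmp10 and 8 Mmp3 UMIs. In day 3, 8 of 30 cells had Pdgfra and held 20 of 39 Mmp13, 22 of 44 Mmp10 and 90 of 99 Mmp3 UMIs. The 4 cells with Pdgfrb in day 3 held 10 Mmp13, 12 Mmp10 and 6 Mmp3 UMIs. In day 6 the cell with all Mmp13 UMIs had Pdgfra and Pdgfrb and no Acta2. The part of cell depth in these marker shares was not tested. The study placed Mmp10, Mmp3, Mmp13, Mmp2, Timp2 and Timp3 among the genes of its Pdgfra-positive CAF type. It drew that list from tumors of the same model, so this grouping is not independent of the study's own. For normal colon it reports Mmp2 and Timp2 kept in telocytes, and Mmp3, Mmp10, Mmp13 and Timp3 absent from fibroblasts, without a stated threshold. Here Timp3 had 55 UMIs in 41 of 464 normal mesenchymal cells.

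Mmp2, unlike the collagenase and the stromelysins, was found across mesenchymal cells of tumor and normal colon alike. It stood at 354, 366, 432 and 729 CPM in CAF-like cells in library order (17, 87, 47 and 118 UMIs), a mean of 470 ± 176 (SD, n = 4), and at 673 CPM (629 to 719.8) from 870 UMIs in normal mesenchymal cells. The normal value lay inside the range of the tumor libraries. Mmp2 was found in 8 of 13, 23 of 39, 20 of 30 and 38 of 56 CAF-like cells and in 276 of 464 normal mesenchymal cells. Among the normal cells the order was telocyte-like at 1358 CPM (1221 to 1506), fibroblast-like at 644 (588 to 704), pericyte-like at 130.1 (59.5 to 247) and myofibroblast-like at 83.6 (48.7 to 134). The pericyte-like and myofibroblast-like intervals overlapped, and the others did not. Outside the mesenchyme no class of 10 or more cells with at least 10 Mmp2 UMIs exceeded 101 CPM (lymphatic endothelial-like cells of day 3).

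Mmp9 was the gelatinase of the neutrophil-like cells. It stood at 950.3, 1089.5, 464 and 1907 CPM in them in library order (145, 1012, 30 and 71 UMIs), a mean of 1102.5 ± 599 (SD, n = 4), and was found in 48 of 67, 330 of 388, 17 of 27 and 18 of 23 cells. These cells held 68.7%, 75.1%, 30.9% and 67.0% of the Mmp9 UMIs of their libraries while they made up 8.96%, 16.1%, 1.90% and 0.814% of the cells. The normal library had no neutrophil-like cluster. There, macrophage-like cells held 38 of the 56 Mmp9 UMIs, at 144 CPM (102 to 197), in 9 of 70 cells. In CAF-like cells Mmp9 stood at 146, 261, 27.6 and 30.9 CPM from 7, 62, 3 and 5 UMIs, against 2.32 CPM from 3 UMIs in normal mesenchymal cells. The summed level of 8 neutrophil markers in the same CAF-like cells was 83.4, 606, 515 and 37.1 CPM in library order, with 3, 8, 7 and 4 of the 8 detected, and its part in the Mmp9 level was not tested.

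Mmp14 was spread over many classes. In CAF-like cells it stood at 354, 295, 82.7 and 173 CPM (17, 70, 9 and 28 UMIs), a mean of 226 ± 122 (SD, n = 4), and in normal mesenchymal cells at 95.2 CPM (79.1 to 114). Day 3 was the only tumor library below the normal one. Endothelial-like cells had 188, 153, 83.4 and 54.9 CPM against 11.2 CPM from 2 UMIs in the normal library, and macrophage-like cells had 110.4, 134 and 165 CPM in both day 1 replicates and day 6 against 26.4 CPM from 7 UMIs. Every tumor library with at least 10 cells of the class stood above the normal library. In epithelial cells, which outnumber the others, columnar cells had 71.7, 85.3, 42.9 and 11.2 CPM against 7.37 in normal colon, and squamous-like cells, an epithelial type of these tumors, 89.5, 202, 56.9 and 43.9 CPM. Columnar, goblet-like and other glandular cells together held 80.2%, 68.1%, 64.7% and 30.2% of the Mmp14 UMIs in library order, and CAF-like cells 2.7% to 5.9%. Glandular cells also held most of all UMIs in each tumor library. Their Mmp14 share lay above their share of all UMIs only in day 1 replicate 1, while that of CAF-like cells did so in each tumor library. The columnar level was 6.48% to 51.8% of the CAF-like level, well above the 0.224% to 1.65% that Dcn had in the same cells.

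Of the inhibitors, Timp2 had the most UMIs, and its mesenchymal level was higher in normal colon than in any tumor library. It stood at 417, 396, 221 and 729 CPM in CAF-like cells in library order (20, 94, 24 and 118 UMIs), a mean of 440 ± 211 (SD, n = 4), and at 1962 CPM (1886 to 2039.6) from 2534 UMIs in normal mesenchymal cells, where 413 of 464 cells had it. All 4 tumor libraries were below the normal value. Among the normal mesenchymal cells the order was fibroblast-like at 2337 CPM, telocyte-like at 1806, myofibroblast-like at 1230.0 and pericyte-like at 593, and no interval overlapped its neighbor. Lymphatic endothelial-like cells had 866, 412 and 961 CPM in day 1 replicate 2, day 3 and day 6 and 2741 CPM (2323 to 3214) in the normal library, the highest class in each of these 4 libraries. Its interval was clear of the next class in day 1 replicate 2 and overlapped it in the other 3. Timp2 in macrophage-like cells was 70.9, 42.6 and 130 CPM in the tumors and 521 CPM (438 to 616) in normal colon.

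Timp1, an inhibitor induced by inflammation, had the opposite order. It stood at 188, 147, 45.9 and 142 CPM in CAF-like cells (9, 35, 5 and 23 UMIs) and at 23.2 CPM (15.7 to 33.2) from 30 UMIs in normal mesenchymal cells, and all 4 tumor libraries were above the normal one. In macrophage-like cells it had 24, 27 and 200 UMIs in both day 1 replicates and day 6, or 94.6, 39.6 and 375 CPM. In 70 normal macrophage-like cells Timp1 had 0 UMIs, and the 252 UMIs summed over the 4 tumor libraries were at least 15-fold higher than the floor of 3 counts in that library. In day 6 the macrophage-like cells held 56.7% of the Timp1 UMIs and were the highest class, while CAF-like cells were the highest in the other 3 tumor libraries, where their intervals overlapped those of the next class.

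Timp3, which binds to the matrix itself, was low. It had 1, 8, 2 and 4 UMIs in CAF-like cells (20.9, 33.7, 18.4 and 24.7 CPM) and 55 UMIs (42.6 CPM, 32.1 to 55.4) in normal mesenchymal cells. In columnar cells it stood at 8.49, 9.71, 5.96 and 3.38 CPM in library order and at 24.0 CPM from 75 UMIs in normal colon, so its level was highest in the normal library in both classes. Lymphatic endothelial-like cells had more of it in the tumors, at 119 CPM (78.6 to 174) in day 1 replicate 2 and 141 CPM (95.9 to 200.4) in day 6, with 45.8 CPM from 5 UMIs in day 3. In the normal library they had 72.1 CPM from 4 UMIs, an interval of 19.7 to 185 that covers all 3 tumor values.

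The first question the design poses is whether these genes changed from early to late treatment. UMIs were summed per library and cell class and compared with edgeR's quasi-likelihood test (Benjamini-Hochberg adjusted over all genes tested). In CAF-like cells 0 of the 8 members tested were called, against 0% of 3322 genes. DESeq2 called 11 genes and 273 had an unadjusted p below 0.05. The log2 changes (late over early, ± SE) were -1.50 ± 0.96 for Mmp13 (adjusted p = 0.721), -1.68 ± 0.82 for Mmp10 (0.659), -1.71 ± 1.28 for Mmp3 (0.763) and -1.21 ± 0.60 for Mmp14 (0.659). Mmp9 had the largest, -2.73 ± 0.65 (adjusted p = 0.488), and passed the filter on low counts only through the early libraries. Mmp2 stood at 0.78 ± 0.59 and Timp2 at 0.33 ± 0.70, so that 2 of 8 members had a value above 0. The median over the members was -1.36, beside 0.05 over all genes tested.

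Single libraries and cells moved these values. Without the lone Mmp13-rich cell of day 6 Mmp13 stood at -4.58 (adjusted p = 0.498) and Mmp10 at -3.28 (0.395). Without day 6 as a whole Mmp13 was lower late by a log2 change of -3.57 (adjusted p = 0.0092), Mmp10 by -2.93 (0.029) and Mmp9 by -2.88 (0.047). Without day 3 Mmp3 was at -3.36 (adjusted p = 0.0176), and without day 1 replicate 2 its sign turned to 1.37 (1.00). Within the single index libraries (day 3 minus day 1 replicate 1) the log2 differences were -3.48 for Mmp13, -2.19 for Mmp10 and 2.34 for Mmp3, and within the dual index libraries (day 6 minus day 1 replicate 2) -0.44, -1.34 and -4.18. Mmp13 and Mmp10 were lower late in both kinds of library, and Mmp3 was not.

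In macrophage-like cells, where the late group was day 6 alone and the spread came from both day 1 libraries and the trend over all genes, 2 of 6 members tested were called, against 2.19% of 8508 genes (1.33% higher, 0.858% lower). Mmp9 fell by 4.74 ± 0.84 on the log2 scale (adjusted p = 5.02e-06), from 70.9 and 160 CPM in day 1 (18 and 109 UMIs in 3 of 46 and 17 of 133 cells) to 3.75 CPM in day 6 (2 UMIs in 1 of 111 cells). Timp1 rose by a log2 change of 2.73 ± 0.51 (adjusted p = 1.47e-05), with UMIs in 33 of 111 cells in day 6 and in 7 of 46 and 17 of 133 in day 1. With DESeq2 neither gene passed, at adjusted p = 0.0937 for Mmp9 and 0.119 for Timp1. The day 6 library is assumed to vary like the others, so both calls describe that library against day 1. Mmp9 passed the filter on low counts only through the day 1 libraries, where it was high. The 8 neutrophil markers summed to 497, 754 and 315 CPM in these macrophage-like cells in library order, and their part in the Mmp9 value was not tested. Mmp13 stood at 1.32 ± 0.51 (adjusted p = 0.216) and Timp2 at 1.41 ± 0.53 (adjusted p = 0.203).

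**Figure D4:**
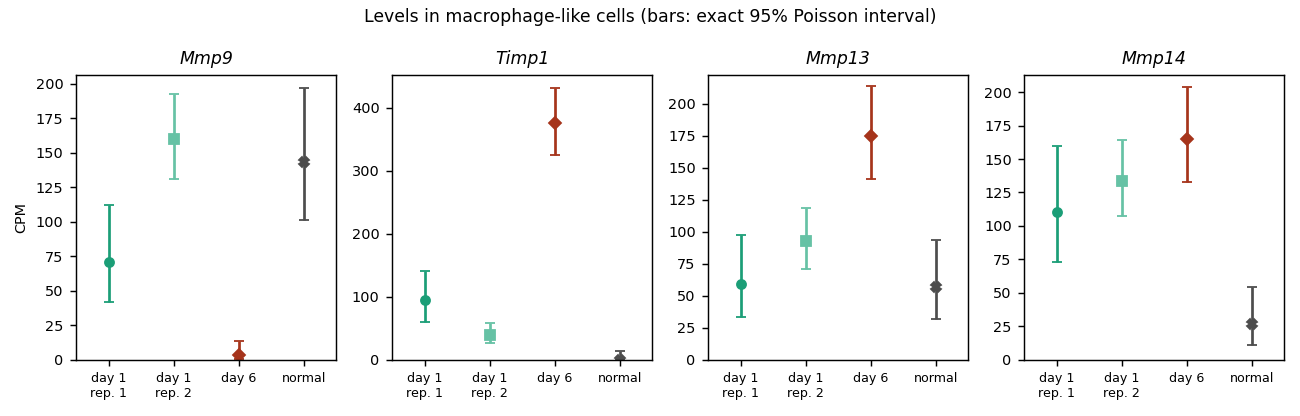
Level (CPM, linear axis) of Mmp9, Timp1, Mmp13 and Mmp14 in macrophage-like cells of the 3 tumor libraries and the normal library with at least 10 such cells, with exact 95% Poisson intervals as bars. In day 6, Mmp9 is at 3.75 CPM and Timp1 at 375 CPM, and Timp1 has 0 UMIs in the normal library.

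In the other classes no member was called between late and early. Columnar cells had 0 of 9 members called, against 0.0158% of 12683 genes, and Mmp14 there had a log2 change of -1.23 ± 0.61 (adjusted p = 0.694). Without day 3 it was -2.38 (0.00201). Squamous-like cells had 0 of 5 called, against 0% of 9737 genes (397 with an unadjusted p below 0.05, 20 called by DESeq2), with Timp1 at -1.64 ± 0.59 and Mmp14 at -1.43 ± 0.56 (both adjusted p = 0.998). Neutrophil-like cells had 0 of 2 called, against 0% of 2375 genes (157 with an unadjusted p below 0.05, 6 called by DESeq2). Mmp9 there stood at 0.25 ± 0.75 (adjusted p = 0.975), with day 3 below and day 6 above both day 1 libraries.

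The second question was how the genes of treated tumors compare with normal colon. In mesenchymal cells (CAF-like in the tumors), 2 of 8 members tested were called, both higher in tumors, against 2.78% of 6212 genes (1.4% higher, 1.38% lower). Mmp13 was higher by a log2 change of 11.06 ± 2.19 (adjusted p = 0.0194) and Mmp10 by 8.37 ± 1.80 (adjusted p = 0.0281). Summed over the tumor libraries, Mmp13 was 3741-fold higher (counting interval 670 to 147835, since the normal library had 1 UMI) and Mmp10 524-fold (240 to 1429). Without the lone Mmp13-rich cell of day 6 both calls were lost, at adjusted p = 0.146 and 0.0708, though the log2 changes were 10.70 and 8.13. Both genes passed the filter on low counts only through the tumor libraries, and the normal library is 1 sample, assumed to vary like the tumors.

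The other members did not pass in mesenchymal cells, and those highest and lowest were far from 0. Of these, Mmp3, Mmp9 and Timp1 also entered the test only through the tumor libraries, by the filter on low counts. Mmp3 had a log2 change of 6.23 ± 2.03 (adjusted p = 0.143, and 0.00179 with DESeq2), and Mmp9 5.16 ± 1.47 (0.0893, and 0.0181 with DESeq2). Timp1 stood at 2.13 ± 0.87 (0.268), Mmp14 at 0.89 ± 0.82 (0.769) and Mmp2 at -0.80 ± 0.73 (0.765). Timp2 had -2.45 ± 0.74 (adjusted p = 0.110), a summed tumor level 0.235 times the normal one (0.205 to 0.267), and passed without day 6 (-2.87, 0.0416). The median over the 8 members was 3.65, beside 0.08 over all genes tested. It includes the members that entered only through the tumor libraries, so the filter shapes it and no conclusion is drawn from it. Timp3 did not pass the same filter and was not tested, at 42.6 CPM in normal mesenchymal cells and 18.4 to 33.7 CPM in CAF-like cells.

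**Figure D5:**
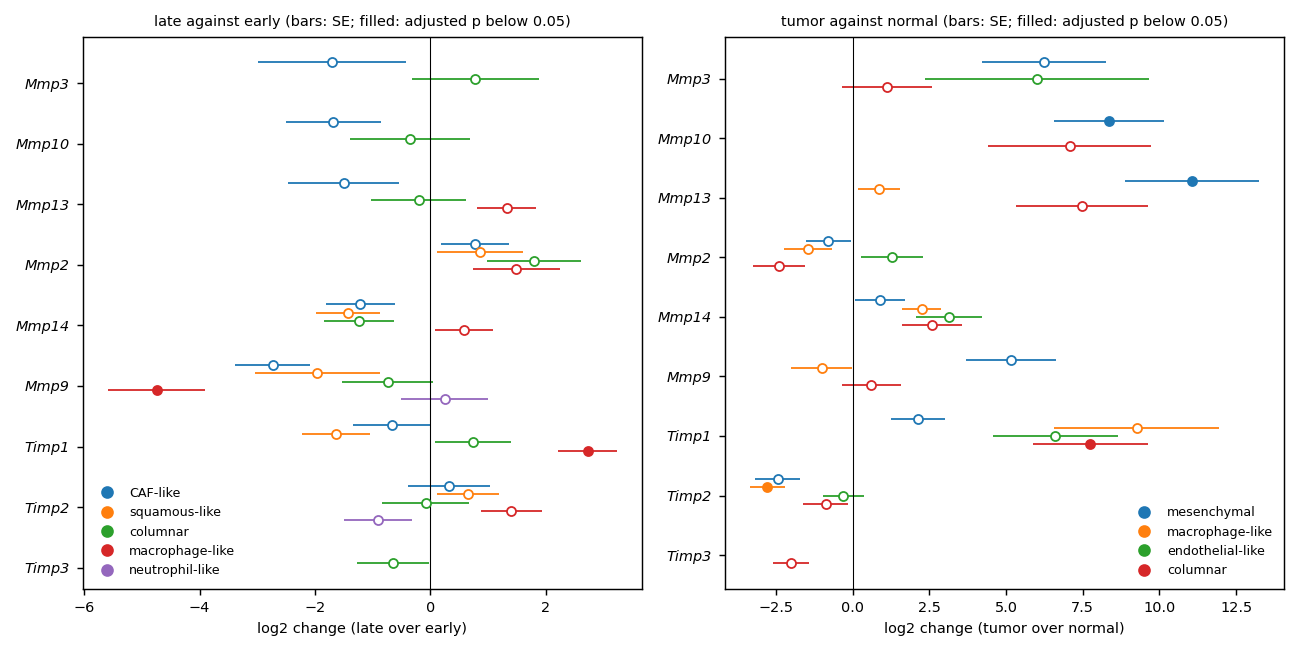
Log2 change (± SE as bars) of the members tested, late over early (left) and tumor over normal (right), by cell class, with filled points for an adjusted p below 0.05. Filled points are Mmp9 and Timp1 in macrophage-like cells on the left, and Mmp13 and Mmp10 in mesenchymal, Timp2 in macrophage-like and Timp1 in columnar cells on the right, where points of genes with 0 UMIs in the normal library depend on the prior count.

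In macrophage-like cells 1 of 6 members was called, against 5.02% of 8060 genes (2.42% higher, 2.61% lower). Timp2 was lower in tumors by a log2 change of -2.78 ± 0.56 (adjusted p = 0.0165), with all 3 tumor libraries below the normal one. Its adjusted p stayed at or under that value in all 10 alternatives. Timp1, with 0 UMIs in the normal cells, had adjusted p = 0.0759. It entered the test only through the tumor libraries, by the filter on low counts, and its log2 change depends on the prior count. Mmp14 stood at 2.24 ± 0.63 (adjusted p = 0.0691). The 11 mesenchymal markers summed to 272, 148 and 69.5 CPM in the tumor macrophage-like cells and to 1326 CPM in the normal ones, with 7, 8, 10 and 11 of 11 markers detected, and their part in the Timp2 difference was not tested. Normal macrophage-like cells had Timp2 at 521 CPM beside that marker sum, while normal mesenchymal cells had 1962 CPM beside a sum of 36343 CPM.

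Endothelial-like cells had 0 of 5 members called, against 3.46% of 6136 genes (1.09% higher, 2.36% lower, 936 with an unadjusted p below 0.05), with Mmp14 at 3.14 ± 1.08 (adjusted p = 0.113) from 2 UMIs in the normal cells. Leaving out day 3, the log2 change of Mmp14 was 3.29. The gene entered this test only through the tumor libraries, by the filter on low counts. In columnar cells 1 of 9 members was called, against 6.18% of 14229 genes (2.41% higher, 3.77% lower). That was Timp1, with 109 UMIs in the tumors and 0 in 329 normal columnar cells, at least 6.00-fold higher (adjusted p = 0.0420), a gene that passed the filter on low counts only through the tumors, and the call was lost in 4 of 12 alternatives. Mmp14 was 6.21-fold higher (4.11 to 9.84) in the summed columnar counts, with a log2 change of 2.58 ± 0.97 (adjusted p = 0.203), and Timp3 stood at -2.02 ± 0.58 (adjusted p = 0.0868).

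A list of 50 other genes of matrix proteolysis, 49 of them in the files, gives the surroundings of these members. Between tumor and normal, the shares of all genes called were 2.78% in mesenchymal, 5.02% in macrophage-like, 3.46% in endothelial-like and 6.18% in columnar cells. The list was not tested against these shares. Of its 31 genes tested between tumor and normal mesenchymal cells, 1 was higher, 2 were lower and 28 did not pass. Lower were Adamts1 (log2 change -4.73, adjusted p = 0.00934) and Adamts4 (-2.91, 0.0363), proteases of proteoglycans, and higher was Mmp7 (8.82, 0.0458), matrilysin, which is known as an epithelial enzyme. In macrophage-like cells 2 of 23 were higher, Mmp8 (7.94, 0.0227), the neutrophil collagenase, and Lcn2 (7.36, 0.0304), which binds Mmp9, and Adam19 was lower (-1.87, 0.0432). In endothelial-like cells, with 22 genes of the list tested, Lcn2 was higher (7.29, 0.0387) and Adamts1 was lower (-3.93, 0.000715). In columnar cells 2 of 32 were higher, Lcn2 (10.10, 0.0141) and Mmp28 (4.07, 0.0268). Lcn2 was called higher in tumors in 3 of the 4 classes, which share the normal library. That library had no neutrophil-like cluster, and the part of neutrophil RNA in the Mmp8 and Lcn2 values was not tested. From early to late, Mmp7 had a log2 change of -4.58 in macrophage-like cells, where the late group was day 6 alone. Paneth-like cells, an epithelial class, numbered 489 in day 1 replicate 2 and 1 in day 6. Their part in the Mmp7 value was not tested. Of the list, 0 of 19, 0 of 21, 0 of 25 and 0 of 11 passed in CAF-like, squamous-like, columnar and neutrophil-like cells. The shares over all genes there were 0%, 0%, 0.0158% and 0%.

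The genes whose levels moved most like each member over 44 sums of a class in a tumor library follow the sources above. The measure is Pearson's r of log2 (CPM plus 10) among 13328 genes, and the sums share libraries and depth, so no p is given. For Mmp10 these were Pdgfra (0.94), the Bmp antagonist Grem1 (0.94) and the cytokine Il11 (0.94), and for Mmp13 Pdgfra (0.89), Col1a1 (0.89) and Col5a3 (0.89). For Mmp3 they were Wisp1 (0.90), Ddr2 (0.88) and Col6a3 (0.88), and for Mmp2 Tgfb1i1 (0.90), Lmcd1 (0.88) and Gm13889 (0.86). For Mmp9 they were S100a8 (0.87), Arg2 (0.86) and Trem3 (0.86), and S100a8 is a granule gene of neutrophils. Mmp14 had its nearest genes at lower values, Fn1 (0.78), Sgk1 (0.75) and Rbms1 (0.75). Timp1 was near to Tubb6 (0.83) and Ptgs1 (0.82), Timp2 to Slco3a1 (0.84), F2r (0.80) and Fbn1 (0.80), and Timp3 to Nsg1 (0.91), Tnxb (0.85) and Sned1 (0.84). Among the members themselves r was 0.88 for Mmp10 with Mmp13, 0.81 for Mmp3 with Mmp10 and 0.78 for Mmp3 with Mmp13. Mmp2 stood at 0.81 with Mmp13, 0.76 with Mmp3 and 0.75 with Mmp10, and at 0.19 with Mmp9.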

How the data were processed

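Single-cell libraries were prepared by inDrop and sequenced in single or dual index structure. Per the study's methods, the authors demultiplexed and aligned the reads (GRCm38, as the submitters' processing notes also give) and made raw UMI counts per gene and barcode with dropEst, and the deposited tables hold these counts, with no normalization. Of the gene names for normal colon, 145 were respelled to match the tumors. Here, cells were scaled to 10000 counts, 2000 variable genes, 20 components and 20 neighbours (seed 1) were used for Leiden clustering at resolution 1 (scanpy 1.11.5), tumors and normal colon apart, and the naming rule was set after the clusters were seen. Scrublet called 12 of 7396 tumor and 7 of 1095 normal cells, too few to have worked, so the 6% with the highest scores were left out as an alternative.

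Counts were summed per class and library (at least 10 cells) and tested with edgeR 4.0.16 (quasi-likelihood, filterByExpr, TMM, Benjamini-Hochberg at 0.05), checked on simulated counts, with DESeq2 1.42.0 as an alternative. The normal library, without a replicate, was assumed to vary like the tumors. The members are given whole, the text names pathway genes past the threshold and the 3 genes of most similar pattern for each member, and alternatives were other tools, filters, resolutions, cells and left-out libraries. Members and lists were chosen with earlier results of these data known. Some genes that this rule names are not reported here.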

Additional observations from a re-analysis of the deposited data

Results flagged for a closer look

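For 4 members the late libraries lay on one side of the early ones in one cell class and on the opposite side in another. Each pair was then tested as an interaction of class and time with the library as a block (edgeR, Benjamini-Hochberg adjusted over all genes), a test added after the data were seen, in which late macrophage-like cells are day 6 alone. The pairs were chosen for this pattern, so the test is no independent evidence of it. The log2 values below are ratios of mean CPM over the late and early libraries with at least 10 cells of a class. Day 3 had no macrophage-like sum, so in pairs with that class the test set day 6 against day 1 only. The ratios of mean CPM for the other class of such a pair include day 3. With 7 sums in such a pair and 1 late macrophage-like library, the p-values rest mostly on the spread shared over genes. They do not measure the spread between late libraries, and no conclusion is drawn from them. The estimates of the test against CAF-like cells were 1.93 for Mmp13, 2.97 for Timp1 and 1.30 for Mmp14. Against columnar cells the estimate was 2.98 for Mmp14. Over all genes it called 48 of 7998 for macrophage-like against CAF-like, 0 of 10832 against squamous-like, 317 of 11653 against columnar and 27 of 7384 against neutrophil-like cells, and 9 of 9618 for squamous-like against neutrophil-like cells. Mmp13 had a log2 late over early difference of 1.20 in macrophage-like and -1.60 in CAF-like cells (adjusted p = 0.0120), and the CAF-like value of day 6 is 1 cell. Timp1 stood at 2.48 in macrophage-like cells against -0.83 in CAF-like (adjusted p = 0.00709) and -1.72 in squamous-like cells (0.491). Mmp14 stood at 0.44 in macrophage-like cells against -1.34 in CAF-like (adjusted p = 0.820), -1.53 in squamous-like (0.598) and -1.54 in columnar cells (1.51e-09). Timp2 stood at -0.96 in neutrophil-like cells against 0.54 in squamous-like (adjusted p = 1) and 1.19 in macrophage-like cells (0.184).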

How the results depend on the processing

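Of 697 member values recomputed under an alternative, 634 kept their direction and side of the threshold, 31 newly passed it, 8 no longer did and 24 changed direction. With DESeq2 the genes called late against early were 11 in CAF-like (0 in edgeR), 20 in squamous-like (0), 58 in columnar (2), 23 in macrophage-like (186) and 6 in neutrophil-like cells (0), and tumor against normal 268 in mesenchymal (173) and 230 in macrophage-like cells (405). Without a filter on low counts they were 43, 85, 274 and 12 in CAF-like, squamous-like, columnar and neutrophil-like cells late against early, and 687, 959 and 553 in mesenchymal, macrophage-like and endothelial-like cells against normal. With library structure as a block 99 were called in squamous-like and 0 in columnar cells, and with all barcodes 99 in macrophage-like cells. In columnar cells 67 were called with day as a number and 0 at resolution 0.5, at resolution 2, without the highest Scrublet scores and with unnamed epithelial clusters added. Leaving out 1 library, which leaves a lone sample assumed to vary like the others, gave 3 to 186 (CAF-like), 11 to 124 (squamous-like), 0 to 850 (columnar) and 0 to 200 (neutrophil-like) late against early, and 161 to 338 (mesenchymal), 574 to 774 (macrophage-like), 233 to 524 (endothelial-like) and 692 to 1328 (columnar) against normal. The causes were not tested.

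Log2 values that changed direction without 1 library ranged from -3.36 to 1.37 for Mmp3 and -0.82 to 1.01 for Timp2 in CAF-like cells, from -1.40 to 1.69 for Mmp3, -2.69 to 0.60 for Mmp10, -1.37 to 0.52 for Mmp13 and -1.63 to 0.71 for Timp2 in columnar cells, and from -1.28 to 0.88 for Mmp9 in neutrophil-like cells. In columnar cells late against early, resolution 2 gave 0.14 for Mmp10, 0.30 for Mmp13 and -0.59 for Timp1, unnamed clusters gave 0.21, 0.55 and -0.55, Mmp9 was 0.10 without the highest Scrublet scores and Mmp3 -0.21 with day as a number. Neutrophil-like Mmp9 was -0.10 without the filter and -0.032 with the block. In columnar cells against normal, resolution 0.5 gave -0.089 for Mmp9 and 0.59 for Timp3, and Timp2 was 0.13 at resolution 2 and 0.16 with unnamed clusters. Late against early in macrophage-like cells was not run without a library or with the block, since the late group is 1 library. No paired analysis was possible because the labels number the day 1 libraries alone, and the block above joins libraries by index structure, not by replicate number. Depth limits Timp3 most, with 1 to 8 UMIs in CAF-like cells.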
